A study of Mus musculus with 4 samples.

Results

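The Sox genes encode transcription factors that share a DNA-binding HMG box, and 10 of them other than Sox2 were followed here: Sox3, Sox4, Sox7, Sox9, Sox11, Sox12, Sox13, Sox15, Sox17 and Sox21. These genes were chosen with earlier results of these data known. Their probe sets were all those whose only symbol in the platform annotation was one of these names. That gave 30 of the 45101 probe sets on the array and 10 of its 18193 named genes. Messenger RNA was measured in mouse embryonic stem cells of 2 genotypes, wild type (WT) and Suz12KO, with 2 Affymetrix arrays each, and no treatment is named in the labels. Per the labels, RNA extracted from 3 clones of a genotype was mixed in equal parts. Whether both arrays of a genotype carry separate RNA is not stated, so every p-value below measures spread between arrays, which may be technical. Suz12 belongs to the core of Polycomb repressive complex 2 (PRC2), a histone H3 methyltransferase, and the comparison asks how transcript levels differ between stem cells with and without it.

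Sox proteins bend DNA and act with partner factors, and they fall into subgroups by the likeness of their HMG boxes. Sox3 (subgroup B1, with Sox2) and Sox21 (subgroup B2) act in neural progenitors, as an activator and a repressor. Sox4, Sox11 and Sox12 form subgroup C, active in neuronal differentiation and in embryonic mesenchyme. Sox13 belongs to subgroup D, Sox9, the master regulator of cartilage, to subgroup E, and Sox7 and Sox17, factors of endoderm and blood vessels, to subgroup F. Sox15, the lone member of subgroup G, is expressed in embryonic stem cells. Many developmental Sox genes carry CpG-rich start regions and Polycomb marks in stem cells.

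The 250 bases before the start of the 3 subgroup C genes are shown because Sox4 and Sox11 fell while Sox12 had no call. They come from RefSeq (GRCm38.p6), which matched 6 of the 10 members (not Sox3, Sox7, Sox9 and Sox17), and are read 5′ to 3′ on the gene's strand with each CG dinucleotide in capitals. All 3 genes lie on the minus strand, and the windows are chr13:28953700-28953949 for Sox4, chr12:27342719-27342968 for Sox11 and chr2:152398047-152398296 for Sox12.
Sox4: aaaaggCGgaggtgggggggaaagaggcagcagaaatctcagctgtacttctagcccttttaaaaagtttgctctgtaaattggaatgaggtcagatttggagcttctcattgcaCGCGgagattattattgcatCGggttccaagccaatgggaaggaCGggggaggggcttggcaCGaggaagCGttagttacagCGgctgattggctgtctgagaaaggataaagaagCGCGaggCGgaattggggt
Sox11: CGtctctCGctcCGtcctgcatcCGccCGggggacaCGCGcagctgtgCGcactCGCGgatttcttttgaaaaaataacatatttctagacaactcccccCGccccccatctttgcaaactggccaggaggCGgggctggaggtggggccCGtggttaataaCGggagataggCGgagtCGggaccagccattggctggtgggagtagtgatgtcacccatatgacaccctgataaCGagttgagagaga
Sox12: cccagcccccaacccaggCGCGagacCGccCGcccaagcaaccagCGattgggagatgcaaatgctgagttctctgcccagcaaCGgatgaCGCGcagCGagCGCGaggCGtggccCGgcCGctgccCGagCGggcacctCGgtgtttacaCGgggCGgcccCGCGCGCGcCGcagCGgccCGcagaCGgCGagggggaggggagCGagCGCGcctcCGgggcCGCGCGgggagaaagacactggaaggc
The Sox12 window held 35 CG dinucleotides, the Sox11 window 17 and the Sox4 window 11. Among 32817 promoter windows of the same length, 2.98% held at least 35, 23.5% at least 17 and 35.5% at least 11, and the median was 6. So each window was richer in CG than the median, and that of Sox12 held the most. Whether CG content goes with the calls was not tested. Of the other matched members, Sox13 had 31, Sox21 had 17 and Sox15 had 5, the one below the median. The Sox13 window, chr1:133424213-133424462, lies almost wholly inside the annotated gene, whose span reaches 133424459. The sequence CG reads the same on both strands.

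Suz12 transcript, the check of the labels, read 1097 and 1094 for WT against 217 and 369 for Suz12KO, or -1.89 as a log2 fold change (SE 0.27, Benjamini-Hochberg adjusted p = 0.0021 by limma). Deposited values are linear probe set signals, and fold changes here are differences of log2(signal + 16), which understate the change of dim probe sets. Background was judged from 27 probe sets for bacterial spike RNA that read low throughout; the highest of them lay at 141 to 195, depending on the array. All 8 markers fixed for pluripotent cells were above that level in the 4 arrays, and all 8 were called higher in Suz12KO. Each gene was represented by its brightest probe set, and 12735 genes entered the test.

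Of the 10 Sox genes, all of which passed the filter on dim genes, Sox11 and Sox4 fell, 0 rose and 8 did not pass the test at an adjusted p of 0.05. Over all tested genes 5.50% were called lower and 4.48% higher in Suz12KO. Since the members were chosen with earlier results of these data known, these shares do not test the Sox family. At an unadjusted p under 0.05, limma gave 1 further member, Sox7, on the higher side. Of all 12735 genes, 2966 reached that level, 1455 of them on the lower side. Sox7 was within background in WT, and as a gene it fell under the filter when either Suz12KO array was left out. The median log2 fold change was 0.15 for the members and 0.04 for all tested genes. Without WT replicate 1 or WT replicate 2 the share of genes called lower was 3.25% or 3.02%, and Sox11 and Sox4 were called in both cases. After centring each array on its median, which moved the median log2 fold change of all genes to -0.13, 294 genes were higher and 1243 lower in place of 570 and 700, and the 2 Sox calls held.

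**Figure D1:**
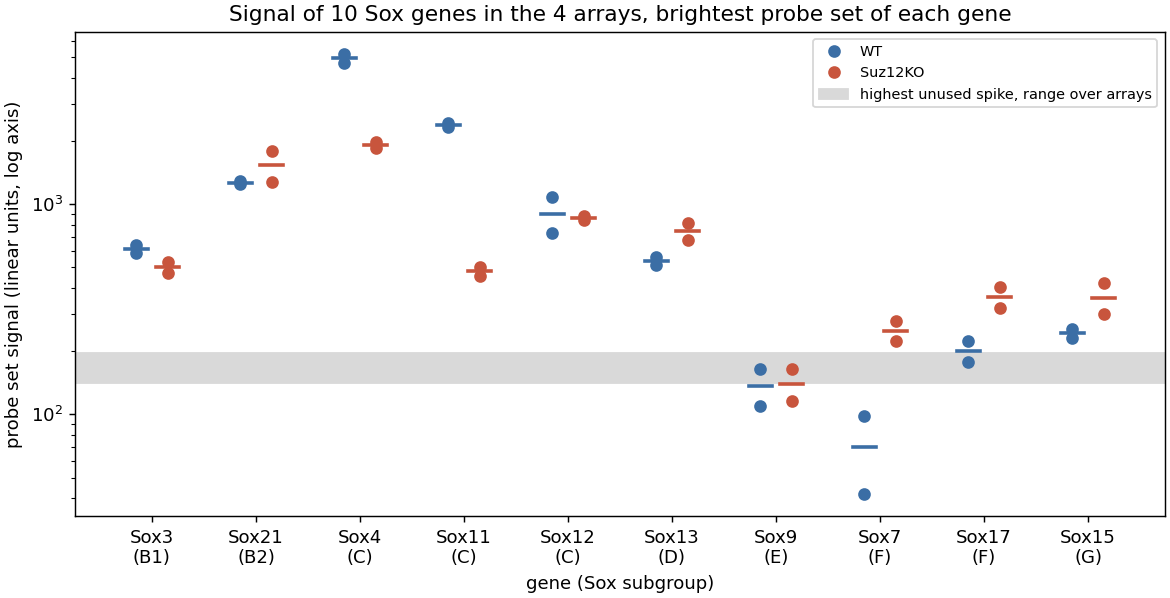
Probe set signal in linear units on a log axis for the brightest probe set of each Sox gene, with 1 point per array and a bar at the mean of 2 arrays, for WT (blue) and Suz12KO (red); the grey band is the range of the highest spike signal over arrays. The arrays of the 2 genotypes lie far apart for Sox4 and Sox11, and Sox9 stays within background; heights of different genes cannot be compared, since probe sets differ in brightness per transcript.

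Sox11, a subgroup C factor that promotes neuronal maturation, showed the larger fall. The probe set that represents it, 1429051_s_at, read 2420.4 and 2319 for WT against 457 and 502 for Suz12KO. Both Suz12KO arrays thus lay well under both WT arrays and above background. The mean went from 2370 ± 71.6 to 479.6 ± 32.0 (SD, n = 2 arrays each), 4.94-fold lower in linear signal. On the log2 scale the change was -2.27 (SE 0.14, 95% interval -2.59 to -1.95, limma adjusted p = 1.91e-05), the 23rd largest fall among 12735 genes.

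All 6 Sox11 probe sets were called lower when every probe set was tested on its own, against 3.99% of all tested probe sets. Both Suz12KO arrays lay under both WT arrays in each, as for 23.7% of all tested probe sets. In the 3 that stayed above background in all arrays the log2 difference was -1.85 to -2.97. The brightest of those without a suffix for shared sequence, 1431225_at, read 2118 and 2247 for WT against 240.2 and 289.8 for Suz12KO, a log2 difference of -2.97 (SE 0.18). Probe set 1453125_at went from 1375 and 1642 to 100.2 and 211, with Suz12KO replicate 1 within background, so the size of its fall was not measured. Probe set 1436790_a_at went from 824 and 854 to 196 and 249.6. For 1429372_at both Suz12KO arrays, at 153 and 84.8, were within background against 874 and 667 in WT, so it was at least 4.15-fold lower. The 6 probe sets come from 4 source sequences in the annotation and report on 1 gene, so they are not replicates of the genotype.

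Sox4, the subgroup C relative of Sox11, which is expressed in many progenitor cells, fell as well. Its brightest probe set, 1433575_at, read 4715 and 5166 for WT against 1850 and 1980.5 for Suz12KO, with no overlap between genotypes. The mean was 4940.4 ± 319 in WT and 1915 ± 92.6 in Suz12KO (SD, n = 2), 2.58-fold lower in linear signal. The log2 fold change was -1.36 (SE 0.09, 95% interval -1.57 to -1.15, limma adjusted p = 2.94e-05), and the fall ranked 204 among 12735 genes.

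Of 8 Sox4 probe sets, 6 exceeded background, and in each of these both Suz12KO arrays lay under both WT arrays, as for 23.7% of all tested probe sets. Limma called 4 of them lower, against 3.99% of all tested probe sets, with log2 differences of -1.03 to -1.37. Probe set 1419157_at, for example, read 2241 and 2385 for WT against 779 and 1009 for Suz12KO. The remaining pair read 951 and 711 against 399.8 and 531 (log2 difference -0.81, limma adjusted p = 0.083) and 553 and 649 against 508 and 437 (-0.34, adjusted p = 0.468), so the size of the fall depended on the probe set. Another 2, which share 1 source sequence, were within background in all 4 arrays, between 22.6 and 97.7, and cannot show a change. Averaging all 8 gave a log2 fold change of -0.65 that did not pass (limma adjusted p = 0.163), while averaging the 6 above background gave -1.03 (adjusted p = 0.0032); the latter alternative was added after seeing the data. Annotation assigns 4 of the 8 to 1 source sequence.

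Sox12, the third subgroup C gene, was not called: it read 725 and 1079 for WT against 845 and 881 for Suz12KO. The Suz12KO arrays fell between the WT arrays. Its log2 fold change was -0.04 (0.007 after quantile normalization), with an SE of 0.21 and a limma adjusted p of 0.944. The 95% interval of -0.50 to 0.43 does not reach the changes of Sox4 or Sox11. Another pair of Sox12 probe sets was within background in every array.

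**Figure D2:**
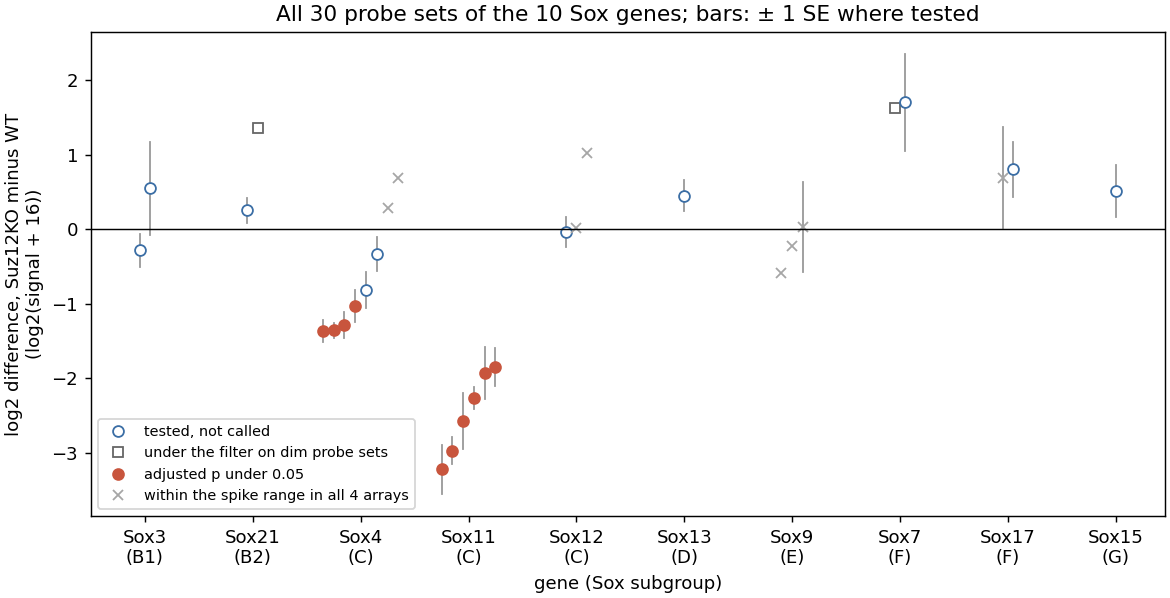
Log2 difference, Suz12KO minus WT, for each of the 30 probe sets of the Sox genes, grouped by gene, with bars of ± 1 SE where a probe set was tested (SE from 2 arrays per genotype). The 10 called probe sets (red) are 6 of Sox11 and 4 of Sox4, and grey crosses mark the 8 probe sets that stayed within the spike range in all arrays.

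Taking the probe sets singly, 22 of the 30 passed the filter, 10 were called lower by limma and 0 higher. At an unadjusted p under 0.05, limma gave 11 lower and 1 higher, against 4857 of 24461 probe sets in either direction. Over all 24461 tested probe sets 3.99% were called lower and 2.82% higher. The 10 called ones all belong to Sox4 and Sox11. Of these, 1453002_at of Sox11 lost its call when WT replicate 1 was left out (limma adjusted p = 0.089) and when WT replicate 2 was (0.055). Probe set 1419156_at of Sox4 lost its call when WT replicate 2 was left out (limma adjusted p = 0.125) and when Suz12KO replicate 1 was (0.068). At the gene level 7 of 10 members had arrays that did not overlap between genotypes (3 lower, 4 higher), against 52.9% of all tested genes (23.9% lower and 29.0% higher).

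The subgroup F genes Sox7 and Sox17, regulators of endoderm and endothelium, were read higher in Suz12KO without passing the test. Sox7 was within background in WT, at 41.8 and 97.8, and above it in Suz12KO, at 278 and 222. It thus read at least 1.51-fold higher, a bound that carries no error estimate. Its fitted log2 difference was 1.71 (SE 0.67, 95% interval 0.20 to 3.21, limma adjusted p = 0.158), and the interval is not adjusted for the number of genes. Sox7 passed the filter on dim genes through its Suz12KO readings, so neither this fit nor that bound is support for a rise. A dimmer Sox7 probe set, under the filter and so not tested, read 35.6 and 55.5 for WT against 239 and 124 for Suz12KO. Only its Suz12KO replicate 1 reading was above background. Sox17 read 178 and 222 for WT against 404 and 319 for Suz12KO, a log2 difference of 0.80 (SE 0.37, 95% interval -0.04 to 1.65, adjusted p = 0.238). Its second probe set was also higher in both Suz12KO arrays (164 and 130 against 81.8 and 86.4), but within background throughout. For both genes the genotypes did not overlap in any probe set, as for 26.3% of all tested probe sets on the higher side. That share leaves out untested probe sets such as the dimmer one of Sox7, and neither gene's difference passed the test.

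Sox15, which can pair with Oct4 in stem cells, read 231 and 256 for WT against 419 and 299 for Suz12KO. The genotypes did not overlap, and the log2 difference of 0.52 (SE 0.35, 95% interval -0.28 to 1.32) had a limma adjusted p of 0.428. With Suz12KO replicate 1 left out it was 0.28, with Suz12KO replicate 2 left out it was 0.75, and it passed in neither case. Sox13, a subgroup D factor known from T cells, read 514 and 562 for WT against 677 and 815 for Suz12KO, a log2 difference of 0.45 (SE 0.20, 95% interval -0.01 to 0.92, adjusted p = 0.224). Both genes were thus somewhat higher in every Suz12KO array, each on the evidence of 1 probe set.

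The subgroup B genes had small differences. Sox3, the X-linked relative of Sox2, read 639 and 586 for WT against 473 and 528 for Suz12KO, with no overlap and a log2 difference of -0.28 (SE 0.22, 95% interval -0.77 to 0.21, limma adjusted p = 0.481). Its second probe set pointed the other way (72.5 and 250.4 against 227 and 193), with WT arrays on both sides of the Suz12KO arrays. Sox21 read 1248 and 1286 for WT against 1797 and 1279 for Suz12KO. Suz12KO replicate 1 was high while Suz12KO replicate 2 matched WT, and the log2 difference was 0.26 (SE 0.17, adjusted p = 0.399), or 0.01 without Suz12KO replicate 1 and 0.50 without Suz12KO replicate 2. It was 0.09 with centring and 0.81 with the mean of both Sox21 probe sets, and it did not pass in any of these. Sox9 was not measurable above background: all 3 of its probe sets were within background in all arrays, and the brightest read 110 and 164 for WT against 165 and 115 for Suz12KO (log2 difference 0.04, and -0.11 with quantile normalization or -0.13 with centring).

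**Figure D3:**
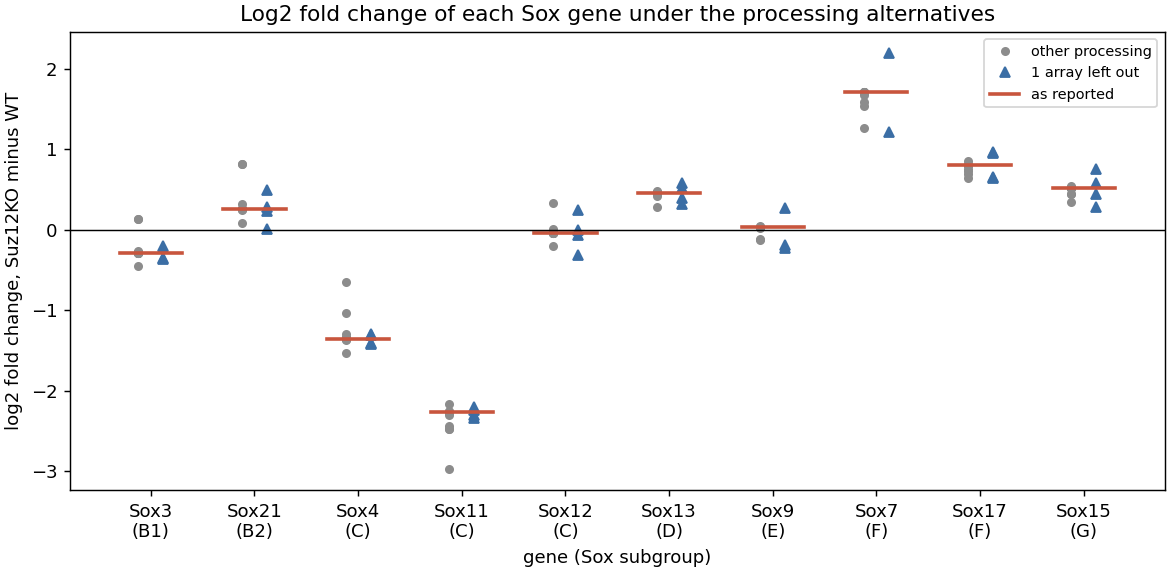
Log2 fold change, Suz12KO minus WT, of each Sox gene as reported (red line), with 1 array left out (triangles) and under the other processing alternatives (grey points), where the gene passed the filter. Sox11 stays between -2.97 and -2.16 and Sox4 between -1.53 and -0.65, while Sox3, Sox9 and Sox12 have values on both sides of 0.

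Sox4 and Sox11 were called with any 1 of the 4 arrays left out. Both calls depend on letting the modelled array spread follow signal level. Without that trend limma called 0 of 12735 genes, with 2332 at an unadjusted p under 0.05, among them Sox4 and Sox11 (adjusted p = 0.104 and 0.0999).

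Other genes of the family gave few readings. Of 10 further Sox-related genes on the array (Sox1, Sox2, Sox5, Sox6, Sox8, Sox10, Sox14, Sox18, Sox30 and Sry), 4 were bright enough to test, 1 rose and the other 3 did not pass. The riser was Sox2, the pluripotency factor of subgroup B1, which went from 4871 and 5376 in WT to 8985 and 9693 in Suz12KO (log2 fold change 0.86, SE 0.08). So the direction of Sox2 was opposite to that of Sox4 and Sox11. Of 9 genes with enhancers read by Oct4 and Sox2 or marking the same state, 8 rose, against 4.48% of all tested genes, and 1 did not pass. The median log2 fold change of the 9 was 0.69. They include Sox2 itself, and Sox2, Pou5f1, Nanog, Utf1 and Zfp42 are also among the pluripotency markers above. The 2 counts are therefore not independent. Nanog, a core pluripotency factor, rose by 2.04 and Fgf4, a growth factor with a classical Oct-Sox enhancer, by 1.81.

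Genes linked to subgroup C factors in neurons and growing cells moved both ways: of 9 tested, 4 fell, 1 rose and 4 had no call (median log2 fold change -0.23). The actin-binding protein drebrin, Dbn1, fell by 1.37 on the log2 scale and Stmn2, a microtubule regulator of neurons, by 1.12, while Stmn1 rose by 0.45. Tubb3, a tubulin gene bound by subgroup C factors in neurons, read 690.5 and 712 for WT against 537 and 663 for Suz12KO and did not pass (-0.23, adjusted p = 0.561). Tead2, a further target described for this subgroup, had a log2 fold change of -0.67 (adjusted p = 0.0053).

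In the list of neural progenitor genes tied to subgroup B, 2 of 8 tested fell and the other 6 did not pass (median -0.12). Cdh2, which encodes N-cadherin, fell by 1.87 and Nes, which encodes nestin, fell by 1.41. Among 7 tested cartilage genes of the kind driven by Sox9, Col11a1, a fibrillar collagen chain, fell by 1.84 and the other 6 had no call, while the median of 0.48 lay on the other side of 0. Several of the 6 were near background: Acan and Matn1 were within it in WT, and Col9a1 and Comp were above it in 3 arrays. Of 13 endoderm and vascular genes around subgroup F, Lama1, a basement membrane laminin, rose by 2.31 (SE 0.22) and the other 12 did not pass (median 0.09). Among the latter were the endoderm regulators Gata6 (-0.05, adjusted p = 0.953) and Gata4, which was above background in 1 array. Among 11 PRC2 subunits and cofactors 4 rose, with the cofactors Jarid2 (0.95) and Mtf2 (0.76) foremost, Suz12 fell and the other 6 did not pass.

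**Figure D4:**
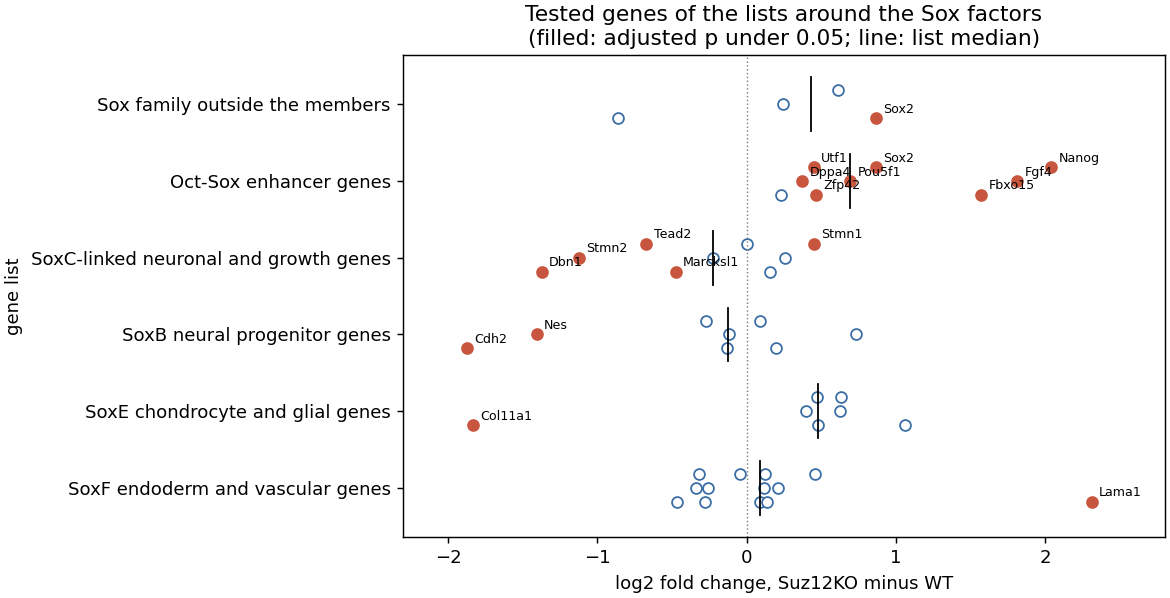
Log2 fold change, Suz12KO minus WT, of the tested genes in 6 lists around the Sox factors, 1 point per gene, filled and named where limma gave an adjusted p under 0.05, with a line at each list's median. Calls in the Oct-Sox list all lie to the right of 0, while those in the subgroup B and cartilage lists lie to the left.

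The genes nearest to Sox11 over the 4 arrays, by Euclidean distance between gene-centred log2 values, were Acta2 (smooth muscle actin, distance 0.053), Thbs1 (a matrix glycoprotein, 0.11) and Gbp2b (an interferon-inducible GTPase, 0.15). For Sox4 they were F7 (coagulation factor VII, 0.041), Capn2 (a calcium-dependent protease, 0.091) and Sema3e (a guidance cue, 0.096). These neighbours had log2 fold changes of -2.13 to -2.34 for Sox11 and of -1.34 to -1.38 for Sox4. They were picked by their values in these same arrays, so the likeness of the fold changes is given by the choice. F7 read 79.6 and 82.7 in Suz12KO, within background, so the size of its fall was not measured.

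Fibroblasts and neural cells can also express Sox4 and Sox11, and some markers of these cell types fell. Of 12 fibroblast markers, such as those of feeder cells, 8 were tested. Of these, 3 fell (Col1a1, Col1a2 and Col3a1), against 5.50% of all tested genes, and the other 5 did not pass. The median log2 fold change of the 8 was -0.99. Those that did not pass had -1.02 (Twist2), -0.95 (Lox), -0.72 (Col6a1), -0.48 (Col5a2) and 0.41 (Thy1). The summed signal of the 12 was 7261 and 7621 for WT against 3158 and 2431 for Suz12KO. Postn, Lum and Pdgfrb, 3 of the 12, were within background in every array, and none was listed at 0. Of 10 neural markers 9 were on the array and 6 tested, of which Stmn2 fell (median log2 fold change of the 6, -0.23). The summed signal of the 9 was 12423 and 13535 for WT against 6455 and 7014 for Suz12KO. Most of it came from Stmn2, and without that gene the sums overlapped (1577 and 2064 for WT against 1555 and 1689 for Suz12KO). Dcx, Neurog2 and Fabp7 were within background. The summed signal of 10 primitive endoderm markers, which include Sox7 and Sox17, was 6004 and 6226 for WT against 6874 and 6420.1 for Suz12KO, with Foxa2 and Afp within background. Lama1 alone (238 and 247 for WT against 1417 and 1134 for Suz12KO) differed by more than these sums did. Of the 8 tested, Lama1 rose, against 4.48% of all tested genes, and the other 7 did not pass (median log2 fold change of the 8, 0.04). The 3′ to 5′ ratio of Gapdh, which reflects RNA integrity, stood at 0.807 and 0.756 for WT against 0.889 and 0.871 for Suz12KO, and that of Actb was 1.14 to 1.16. The part of these differences in the Sox results was not tested. In pooled cultures, fewer cells that express a gene and less of its RNA per cell cannot be told apart.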

How the data were processed

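Total RNA of mouse embryonic stem cells was hybridised to 4 Affymetrix arrays, 2 WT and 2 Suz12KO, grouped by sample title. The authors deposited a linear intensity per probe set, made with summarisation software not given in the sources used here. With 2% of values trimmed at each end, the mean of every array was 500.003, so the authors had scaled each array to a common mean, and a shift of most genes together is invisible. The median signal was 171 to 202. The number of arrays limits the precision.

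Of the non-control probe sets, 34945 had 1 symbol in the platform annotation, 932 several and 9160 none here; only the first were used. Values were taken as log2(signal + 16), genes (brightest probe set) whose mean lay below the 30th percentile were not tested, and limma 3.58.1 in R 4.3.3 compared Suz12KO with WT (lmFit, eBayes with trend, two-sided, Benjamini-Hochberg over all 12735 genes). The same fit was made on 24461 single probe sets. Both fits were also run on simulated data whose array spread was drawn from the same fits, so that run cannot test the modelled spread. A group was within background where both arrays lay at or under the highest spike of that array, and an "at least N-fold" change sets the brighter group's mean log2 signal against that mark.

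Named are all members, Suz12, and of each list the 2 largest rises and falls among calls; the 3 nearest genes skip clone and predicted names. Tubb3, Tead2, Gata4, Gata6 and the named cell type markers were chosen after their values were seen. The members and lists were chosen with earlier results of these data known. Alternatives changed pseudocount (1 or 64), normalization, filter, probe set choice, variance model, replicate block or arrays used. Figures were drawn with matplotlib 3.10.9.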

Additional observations from a re-analysis of the deposited data

How the results depend on the processing

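Sox11 and Sox4 were the genes called lower, 2 in all, under every alternative except these: 0 were called without a mean-variance trend, and 1 (Sox11) with the mean of all probe sets of a gene. No Sox gene was called higher by limma under any of these. With all 4 arrays, 0 to 2 were higher at an unadjusted p under 0.05, against 2332 to 3397 of all tested genes in either direction. Sox7, Sox9, Sox13 and Sox17 have no value where a filter or the choice of probe sets left them untested. Of probe sets, 10 were called lower, 8 to 10 with 1 array left out, and 0 without the trend. Reversed directions concerned genes that were not called. With quantile normalization Sox9 had -0.115 and Sox12 0.0070, and with centring Sox9 had -0.131. With the mean of probe sets Sox12 had 0.33 and Sox3 0.134 (0.134 also with those above the spikes only). With 1 array left out the log2 fold change ranged from -0.22 to 0.27 for Sox9 (to 0.29 for its probe set tested singly), from -0.32 to 0.25 for Sox12 and from -0.24 to 1.35 for the second Sox3 probe set. Replicate numbers do not pair the arrays (correlation of deviations from the genotype mean 0.015, across genes); with replicate number as a block 1016 genes were higher and 1082 lower, and 2 Sox genes were called lower, Sox11 and Sox4. Under the block, and with centring, 11 Sox probe sets were called lower, the added one being the Sox4 probe set at -0.81 (adjusted p = 0.027 and, at -0.98, 0.037). Genes near background, Sox7, Sox9 and Sox17 above all, have the least precise values.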

Other observations

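Pecam1, an endothelial adhesion molecule in the subgroup F list, was too dim on average to be tested. It read 57.4 and 25.5 in WT, within background, and 409 and 283 in Suz12KO, at least 2.07-fold higher. The second Sox21 probe set read 20.0, 26.6 and 18.3 in 3 arrays and 280.1 in Suz12KO replicate 2. Both were singled out after their values were seen.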
